A study of Homo sapiens with 10 samples.

Results

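The comparison described here set PC-3 cells kept for 24 h with DMSO against untreated PC-3 cells at 0 h. PC-3 is a human prostate cancer cell line that grows without androgen, and DMSO is the solvent in which the drugs of the study were added. The members are the 4 arrays labelled DMSO or Ctrl, 2 of each, out of 10 arrays in the series. The other arrays are of cells that received luteolin, gefitinib or both for 24 h. Cells were grown in medium with serum, and for treatment they were seeded in dishes and left overnight before drugs or solvent went in. The 0 h arrays are labelled as the control, and no treatment is given for them. The comparison asks what the vehicle and the time in culture did together. None of the 10 arrays is of untreated cells kept for 24 h, so the solvent and the time in the dish cannot be told apart. The solvent concentration is not given in the sources used here. The replicates are labelled as biological, but whether they came from separate dishes or days is not stated, and the spread between them may be partly technical.

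A vehicle control holds everything that happens to cultured cells except the drug. Freshly seeded cells attach, spread, resume the cell cycle and use up the medium, and genes of these processes are known to follow growth factors, contact between cells, sterols and oxygen. Genes of DNA synthesis are driven mainly by E2F factors at the start of S phase. Genes of mitosis are switched on later, and are controlled by the DREAM and MuvB complexes at the element called CHR and by NF-Y at CCAAT boxes. Sterol synthesis genes are driven by SREBP factors when sterol is short, and immediate early genes by SRF and its partners within minutes of a growth signal.

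Each array gave a fluorescence intensity for 41000 probes. Values are log2 signals from which the array's own 75th percentile was subtracted, so that 0 is that percentile and a difference of 1 is a 2-fold difference. Before scaling, that percentile stood at 1402 and 1177 in the untreated pair and at 1350 and 1283 in the DMSO pair, and between 66.9% and 70.4% of probes were well above background. The arrays of this comparison correlated at 0.988 to 0.995 with each other across genes, which are not independent replicates. The 0 h pair correlated at 0.9916 and the DMSO pair at 0.9946, while 0 h replicate 2 and DMSO replicate 2 also correlated at 0.9916. The median SD between replicates was 0.118 at 0 h and 0.0886 with DMSO. Among the arrays here, DMSO replicate 2 and 0 h replicate 2 shared a slide, whereas the others lay on slides of their own. The keratins KRT8, KRT18 and KRT19, EPCAM, VIM, CD44, CAV1 and EZR were well above background on all 4 arrays. CTNNA1, alpha-catenin, was so on none, whereas KLK2, KLK3 and TMPRSS2, genes of prostate epithelium, were so on all. Of the markers of other cell types 4 of 10 for fibroblasts, 5 of 13 for leukocytes and 3 of 8 for endothelial cells were well above background throughout, but DCN, PDGFRB, FAP and POSTN (fibroblasts), PTPRC, CD3D and LYZ (leukocytes) and VWF, TEK and EMCN (endothelial cells) were not well above background on any of them.

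After 24 h with DMSO most transcripts sat close to their 0 h level. Of 19718 genes tested, 6 rose and 6 fell by the limma test at an adjusted p under 0.05 and a fold of at least 2, or 0.0304% of genes in each direction. None of these 12 calls was kept with the slide as a block, where 2 other genes passed, and 0 genes passed when only probes well above background on every one of the 4 arrays were tested. The median log2 change over all genes was -0.02, and 90.0% of genes differed by less than 0.5 on the log2 scale. A 2-fold difference in the mean was seen for 134 genes in the direction of DMSO and for 248 genes in the other, and for 57 and 110 of the 18245 genes that all 4 arrays measured well above background. Both DMSO arrays lay above both 0 h arrays for 23.8% of genes and below them for 25.4%, and an unadjusted p under 0.05 was reached by 2.85% upward and 3.35% downward. The test drew its estimate of spread from all 10 arrays, whose replicates differed more in the drug groups. A fit with 1 weight per group passed 42 genes as raised and 80 as lowered, and without the 2-fold limit 105 and 144 genes, or 0.533% and 0.73% of those tested. A fit to the 4 arrays alone passed 0 genes at the adjusted p of 0.05, with 2966 genes at an unadjusted p under 0.05, and its smallest adjusted p was 0.079.

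**Figure D1:**
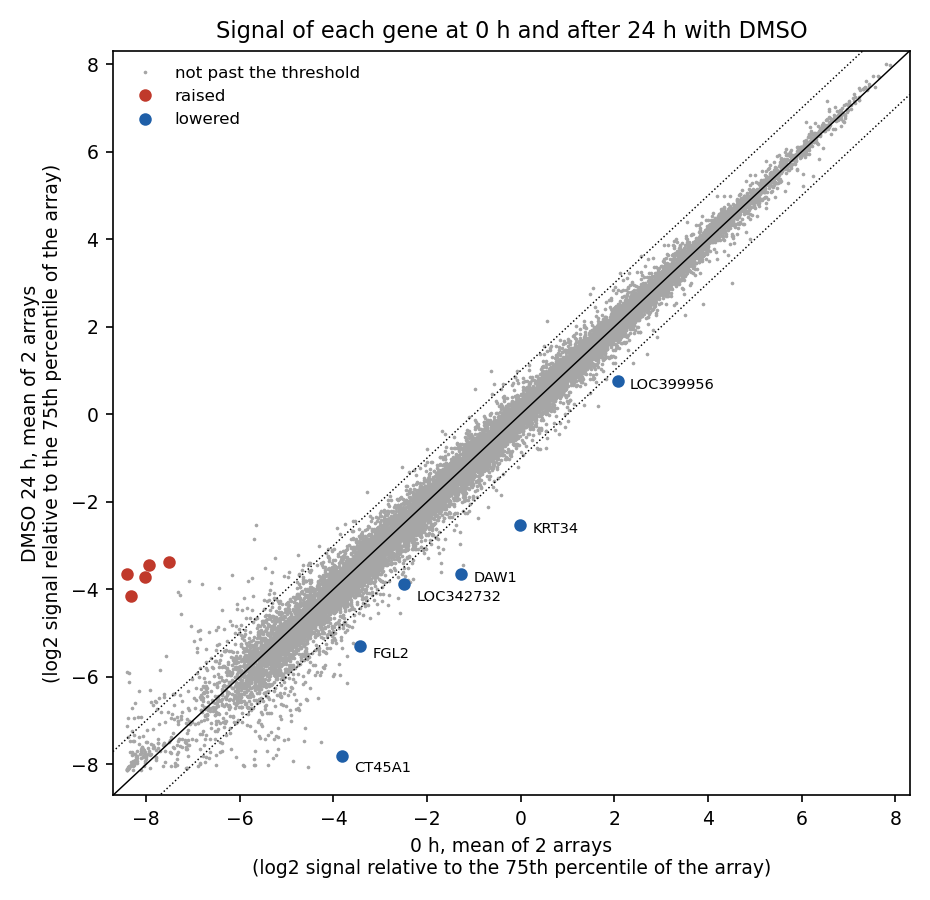
Mean log2 signal of each gene at 0 h (horizontal axis) and after 24 h with DMSO (vertical axis), each the mean of 2 arrays and after subtraction of the array's 75th percentile. Grey points are single genes, the solid line is equality and the dotted lines a 2-fold difference. The 5 raised genes drawn in red lie between -8.40 and -7.52 at 0 h and between -4.15 and -3.37 with DMSO, whereas the 6 lowered genes in blue span the range from CT45A1 to LOC399956. Y-linked genes and XIST are not drawn.

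Of the raised genes, 5 shared one pattern: they were well above background on both DMSO arrays and on neither 0 h array. They passed the filter on dim probes only through the group where they are high, so their adjusted p-values are given as a description and do not support a rise. FSHR, the receptor for follicle-stimulating hormone of gonadal cells (probe at chr2:49044192-49044251 on hg18), measured -8.41 and -8.39 at 0 h and -3.87 and -3.44 with DMSO. With the lowest detected signal as the floor at 0 h, the DMSO level was at least 5.40-fold higher (adjusted p = 0.00328 by limma). Folds given as "at least" depend on that floor and on the background correction. LOC650517, a predicted transcript (chr17:25919964-25920022), measured -7.71 and -8.34 at 0 h against -3.48 and -3.97 with DMSO, at least 5.14-fold higher (limma, adjusted p = 0.00328). For both genes the 0 h values were not well above background, so the gap between the groups is also a description. FLJ32894, a hypothetical protein gene (chr12:24611174-24611233), went from -8.33 on each 0 h array to -3.87 and -4.43, at least 3.84-fold higher (limma, adjusted p = 0.00328). AI003989, an expressed sequence tag (chr10:7644734-7644793), had -7.59 and -8.29 at 0 h and -2.98 and -3.90 with DMSO, at least 6.28-fold higher (limma, adjusted p = 0.0424). C6orf118, an open reading frame of chromosome 6 (chr6:165623519-165626923), had -6.76 and -8.28 at 0 h and -2.99 and -3.76 with DMSO, at least 6.58-fold higher (limma, adjusted p = 0.0424). The remaining raised gene was NLGN4Y, a Y-linked neuroligin, whose level is not given. The 5 genes with levels were well above background on none of the 6 drug-treated arrays. In all, 10 genes were well above background on both DMSO arrays and on no other array of the series, compared with 68 for 0 h, 30 for luteolin, 11 for gefitinib and 91 for both drugs.

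The lowered genes were of a different kind, since 4 of the 6 were well above background on all 4 arrays. CT45A1, a cancer-testis antigen of the X chromosome (chrX:134682668-134683108), was dim after treatment. It measured -3.53 and -4.11 at 0 h and -7.54 and -8.06 on the DMSO arrays, neither of which measured it well above background, and the 0 h level was at least 3.94-fold higher (limma, adjusted p = 0.0132). Its close relatives in the CT45 family share sequence, so the signal cannot be assigned to this copy alone. Among all 10 arrays it was well above background on the 0 h arrays only, through which alone it passed the filter, so its adjusted p is a description, and it did not pass with no filter on dim probes. FGL2, a fibrinogen-like protein (chr7:76663665-76663724), fell from -3.43 and -3.44 to -5.07 and -5.50, the latter pair with 1 array well above background, a log2 change of -1.85 ± 0.19 (SE, n = 2 per group, limma, adjusted p = 0.0241). DAW1, a dynein assembly factor of cilia (chr2:228494500-228496931), fell from -1.07 and -1.46 to -3.63 and -3.67 (log2 change -2.38 ± 0.28, limma, adjusted p = 0.0424). In FGL2 and DAW1 the groups lay well apart, and for CT45A1 the gap between them is a description only.

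Keratin probes made up the rest of the lowered genes. KRT34, a keratin of hair and nail (chr17:36787544-36787603), fell from -0.09 and 0.08 to -2.80 and -2.26, a log2 change of -2.52 ± 0.31 (SE, n = 2 per group, limma, adjusted p = 0.0496). LOC399956 and LOC342732 are predicted genes described as similar to keratin 8. LOC399956 (chr11:118978782-118978800) fell from 2.04 and 2.10 to 0.68 and 0.86, and LOC342732 (chr18:40154760-40154780) from -2.34 and -2.65 to -3.95 and -3.82 (limma, adjusted p = 0.0424 for both). KRT7, a keratin of simple epithelia, went the same way, from 2.69 and 2.68 to 1.27 and 1.49, and just missed the threshold (log2 change -1.31 ± 0.17, limma, adjusted p = 0.0538). KRT8 itself had a log2 change of -0.35 (limma, adjusted p = 0.872), KRT18 of -0.19 and KRT19 of -0.23 (limma, adjusted p = 0.995 for both). Probes for keratins and their predicted copies can take up each other's transcripts, so which keratin gave the signal of the 2 predicted genes is uncertain.

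**Figure D2:**
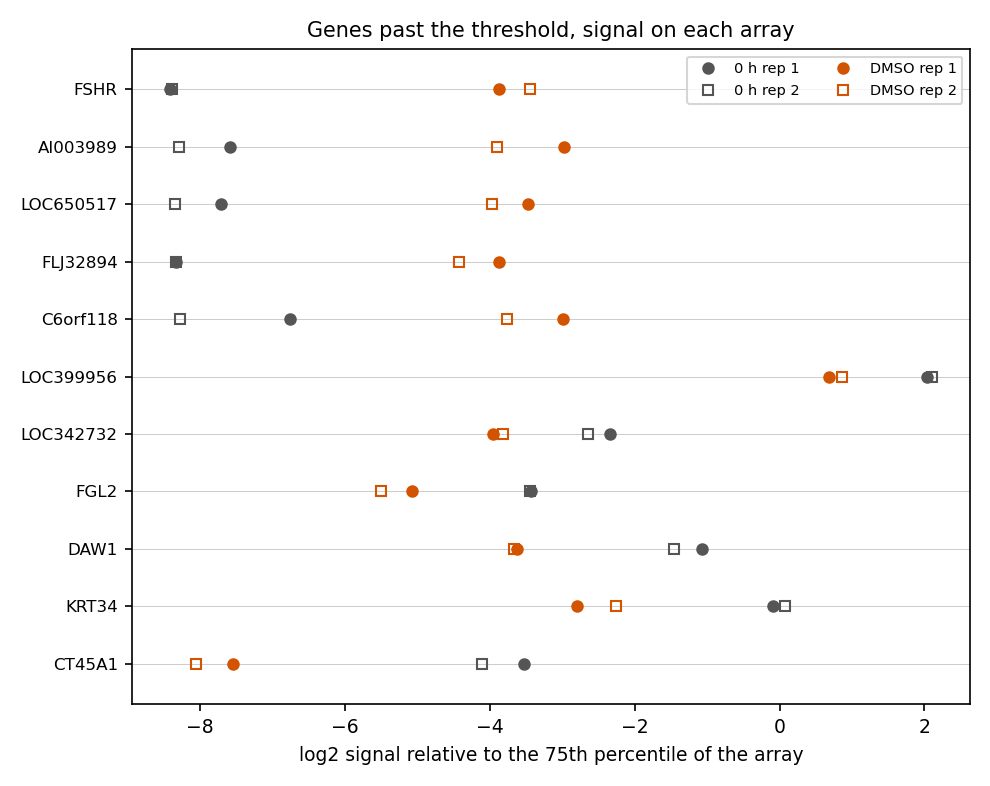
Log2 signal minus the array's 75th percentile (horizontal axis) for each gene past the threshold (vertical axis), with 1 point for each of the 2 arrays at 0 h (grey) and the 2 with DMSO (orange). In all 11 genes the grey and the orange points do not overlap. The 5 raised genes sit below -6 at 0 h and above -5 with DMSO, and the 6 lowered genes go the other way.

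Further genes measured well above background throughout had large negative differences and did not pass the adjusted test. UTS2, the vasoactive peptide urotensin 2, measured -1.44 and -1.03 at 0 h and -3.60 and -3.30 with DMSO (log2 change -2.22, limma, adjusted p = 0.0737). DHRS9, a retinol dehydrogenase, measured -1.96 and -1.43 against -3.73 and -3.48 (log2 change -1.91, adjusted p = 0.146). CPA4, a carboxypeptidase, had -1.24 and -1.37 against -3.01 and -2.90 (log2 change -1.65, adjusted p = 0.146). All of these had groups that lay far apart relative to their replicates. SLFN13, a member of the Schlafen family, differed by -1.51 and the unnamed or cloned transcripts THC2679050, FLJ39582, THC2664350 and AL833655 by -1.97, -1.77, -1.63 and -1.53, at adjusted p between 0.136 and 0.794. For FLJ39582 the value rested on single arrays, from -2.86 without 0 h replicate 1 to -0.67 without 0 h replicate 2. With normexp background correction AL833655 differed by -0.71, and the brighter DHRS9 and CPA4 by -1.42 and -1.34.

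In the other direction the largest difference among such genes was that of ARHGEF25, a guanine nucleotide exchange factor, with -5.73 and -5.66 at 0 h and -2.53 and -3.19 with DMSO (log2 change 2.83 ± 0.70 SE, limma, adjusted p = 0.418). CARHSP1, a cold-shock domain protein that binds RNA, had -0.50 and -0.78 against 1.05 and 0.92 (log2 change 1.63, adjusted p = 0.275). PFDN6, a subunit of the prefoldin chaperone, had 0.67 and 0.45 against 2.34 and 1.91 (log2 change 1.57, adjusted p = 0.455), and PRPF19, a ubiquitin ligase of the spliceosome, -0.60 and -1.35 against 0.67 and 0.46 (log2 change 1.54, adjusted p = 0.720). NLRP3, the sensor of the inflammasome, had -3.52 and -3.04 against -1.92 and -1.62 (log2 change 1.51, adjusted p = 0.226). The remaining positive differences were those of FBXL13 (1.95), TMEM88 (1.56), DKFZP761M1511 (1.71) and the transcripts AF119888 (2.02), AK095853 (1.96), THC2785331 (1.53) and AK025797, and none of the 12 passed the adjusted test. Without DMSO replicate 1, TMEM88 differed by 0.75 and THC2785331 by 0.64. The 0 h means of ARHGEF25, AF119888, AK025797 and TMEM88, -5.69, -5.83, -5.74 and -5.71, lay near the lowest detected signals of those arrays (-6.11 and -6.07). With normexp background correction the differences were 1.43 (ARHGEF25), 0.85 (AF119888), 0.89 (AK095853), 0.97 (AK025797) and 0.67 (DKFZP761M1511). That of the brighter CARHSP1 was 1.65.

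Pathways were read as lists of genes. Across the 28 pathway lists only 1 member, CT45A1, passed the adjusted test, so each list is described by its median log2 change, beside -0.02 for all genes, and by how many members had groups that did not overlap, beside 23.8% above and 25.4% below for all genes. The mitosis list had the highest median and the DNA replication list the lowest.

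**Figure D3:**
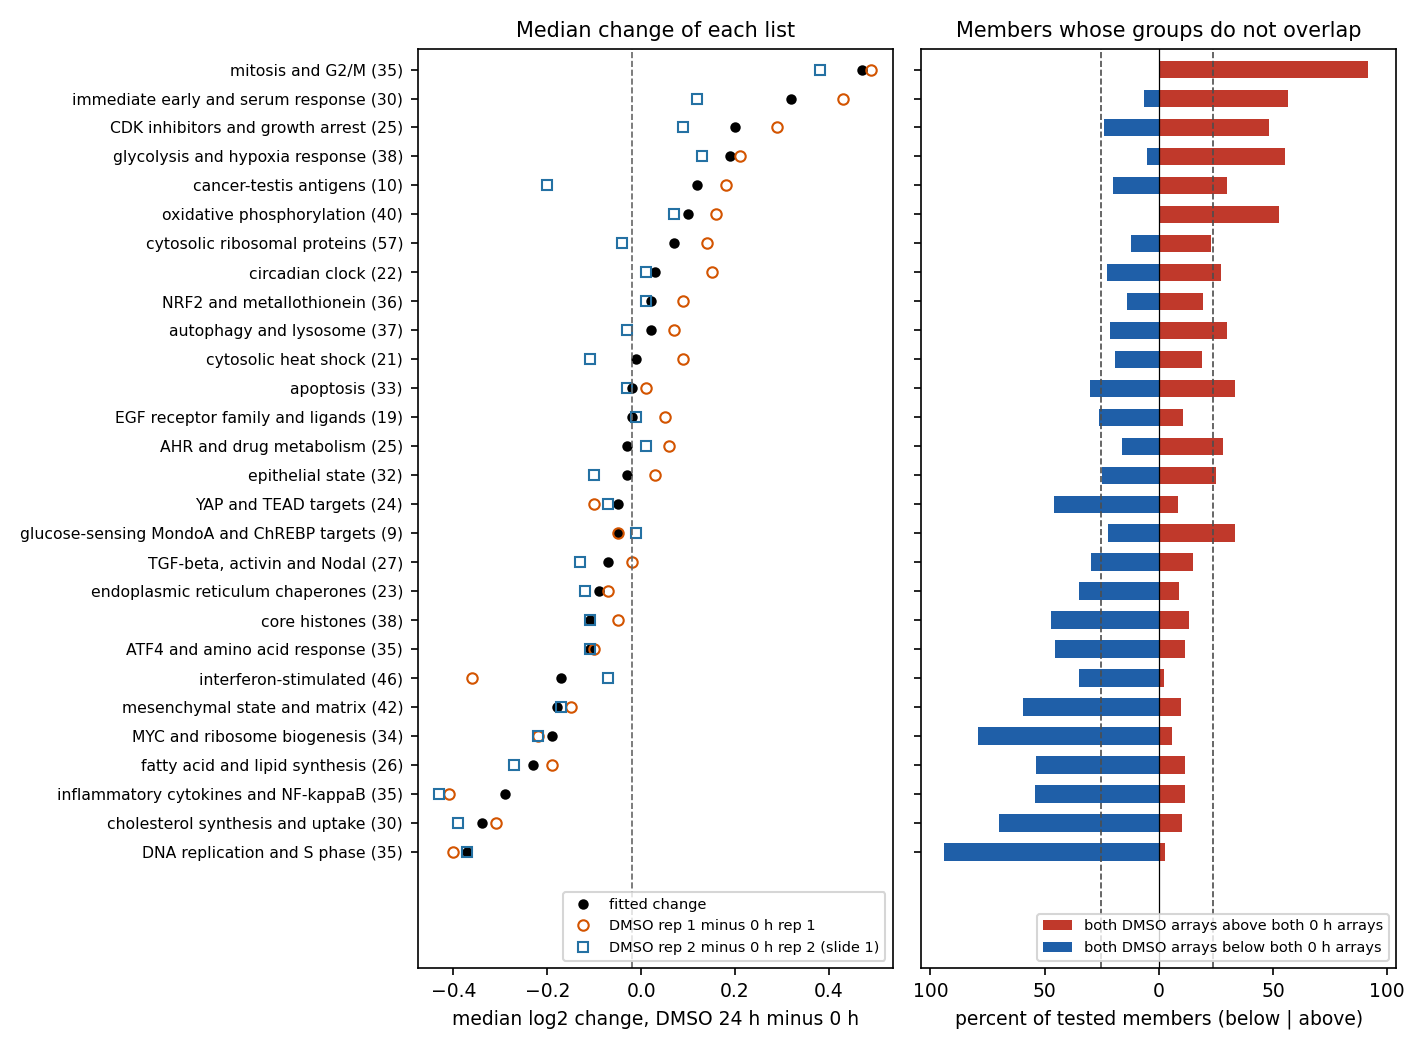
Left, the median log2 change of each gene list (members tested in brackets) in the fit (black) and between the arrays with replicate number 1 (orange) and number 2 (blue, on the same slide), with the median of all genes dashed. Right, the percent of members whose DMSO arrays both lie above (red) or below (blue) both 0 h arrays, with the shares of all genes dashed. Mitosis reaches 91.4% above and DNA replication 94.3% below.

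Cell cycle genes split by phase. Of 35 genes of mitosis and G2/M, 32 had both DMSO arrays above both 0 h arrays and 0 had both below, with a median log2 change of 0.47 and a range from -0.09 (AURKB) to 1.06 (CCNB1). Of 35 genes of DNA replication and S phase, 33 had both DMSO arrays below and 1 above, with a median of -0.37 and a range from -0.67 (CCNE2) to 0.25 (TK1). No member of either list passed the adjusted test. At an unadjusted p under 0.05 by limma there were 8 mitosis genes, all higher, and 12 replication genes, all lower. Among all genes 2.85% reached it upward and 3.35% downward. Groups that did not overlap were seen for 23.8% of all genes above and 25.4% below. Promoters of 5 members are shown because most members of each list differed in one direction: the 3 highest mitosis genes, and MCM6 and MCM3 as helicase subunits, which stand behind CCNE2 and PCNA at the low end of the replication list. Each window runs from 250 bases before to 50 after the RefSeq start, on GRCh38.p14, 5′ to 3′ on the strand of the gene. Capitals mark CCAAT and CHR (TTTGAA or TTCGAA) in CCNB1 (chr5:69166900-69167199, plus strand), KIF20A (chr5:138178862-138179161, plus strand) and DLGAP5 (chr14:55191536-55191835, minus strand), on either strand.
CCNB1: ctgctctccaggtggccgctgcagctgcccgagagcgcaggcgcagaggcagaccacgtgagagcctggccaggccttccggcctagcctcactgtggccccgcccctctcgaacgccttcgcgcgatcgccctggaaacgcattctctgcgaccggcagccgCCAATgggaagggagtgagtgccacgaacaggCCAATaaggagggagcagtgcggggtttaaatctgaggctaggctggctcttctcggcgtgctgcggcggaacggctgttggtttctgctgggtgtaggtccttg
KIF20A: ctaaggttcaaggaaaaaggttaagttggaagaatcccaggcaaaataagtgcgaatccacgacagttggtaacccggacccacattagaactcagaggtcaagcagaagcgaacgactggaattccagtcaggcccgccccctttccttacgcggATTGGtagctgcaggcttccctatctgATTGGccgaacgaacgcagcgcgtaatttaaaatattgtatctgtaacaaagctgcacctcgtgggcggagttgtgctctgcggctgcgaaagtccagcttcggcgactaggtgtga
DLGAP5: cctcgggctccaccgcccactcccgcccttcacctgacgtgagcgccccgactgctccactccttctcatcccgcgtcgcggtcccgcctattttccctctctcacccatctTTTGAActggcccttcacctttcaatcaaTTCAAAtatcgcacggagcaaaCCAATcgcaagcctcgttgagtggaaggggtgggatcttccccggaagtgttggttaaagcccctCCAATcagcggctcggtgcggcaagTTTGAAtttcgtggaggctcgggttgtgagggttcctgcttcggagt
Capitals mark the E2F letters TTTCCCGC, TTTCGCGC, TTTGGCGC or TTTGCCGC, on either strand, in MCM6 (chr2:135876394-135876693, minus strand) and MCM3 (chr6:52284693-52284992, minus strand).
MCM6: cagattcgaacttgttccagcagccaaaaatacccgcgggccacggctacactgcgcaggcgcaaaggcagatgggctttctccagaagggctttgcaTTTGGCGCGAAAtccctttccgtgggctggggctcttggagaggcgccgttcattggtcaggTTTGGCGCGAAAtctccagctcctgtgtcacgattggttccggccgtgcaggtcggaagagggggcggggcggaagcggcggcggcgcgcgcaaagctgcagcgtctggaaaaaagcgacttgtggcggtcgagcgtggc
MCM3: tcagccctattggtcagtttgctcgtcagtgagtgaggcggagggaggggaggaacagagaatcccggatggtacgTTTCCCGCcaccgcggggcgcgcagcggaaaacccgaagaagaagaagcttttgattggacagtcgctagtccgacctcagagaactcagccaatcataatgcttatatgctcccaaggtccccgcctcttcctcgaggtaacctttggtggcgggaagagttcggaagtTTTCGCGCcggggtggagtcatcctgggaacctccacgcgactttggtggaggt
CCNB1 and KIF20A each held 2 CCAAT boxes and no CHR of these letters, DLGAP5 held 2 CCAAT boxes and 3 CHR matches, and MCM6 held 4 E2F matches in 2 places where the matches of both strands overlap. Among the 29 mitosis genes with a promoter window, 72.4% held a CHR match and 82.8% a CCAAT box, compared with 16.6% and 35.7% of 27305 promoters of the same length. CCAAT boxes were also in 60.0% of the windows of the replication list and in 72.7% of those of the cholesterol list, so they were not particular to mitosis, and CHR letters were in 6.67% of the replication windows. E2F letters were in 60.0% of the 30 windows of the replication list, in 10.3% of those of the mitosis list and in 3.33% of all. A match is a description of the letters, and many members of both lists are known for this regulation.

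CCNB1, the cyclin that activates CDK1 at entry into mitosis, measured 2.62 and 2.50 at 0 h and 3.79 and 3.46 with DMSO, a log2 change of 1.06 ± 0.29 (SE, n = 2 per group, limma, adjusted p = 0.501). KIF20A, a kinesin of the midzone, measured -0.13 and -0.11 at 0 h against 1.01 and 0.71 (log2 change 0.98 ± 0.40, adjusted p = 0.764). DLGAP5, a spindle protein, measured 2.15 and 2.22 against 3.16 and 2.98 (log2 change 0.89 ± 0.42, adjusted p = 0.851). In these genes the replicates were within 0.33 of each other and the groups did not overlap. PTTG1, or securin, differed by 0.82, CENPA, the histone of the centromere, by 0.74, AURKA, a mitotic kinase, by 0.73, and PLK1, another, by 0.50. CDK1, MKI67 and AURKB, at 0.10, 0.13 and -0.09, were the members whose groups overlapped. In bulk RNA, more cells in a phase and more RNA of these genes per cell cannot be told apart.

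On the replication side PCNA, the sliding clamp of the polymerases, measured 3.97 and 3.69 at 0 h and 3.28 and 3.18 with DMSO (log2 change -0.60 ± 0.21 SE, limma, adjusted p = 0.651). MCM3 and MCM6 belong to the helicase that opens DNA. MCM3 had 4.54 and 4.40 against 3.90 and 3.88 (log2 change -0.58, adjusted p = 0.577), and MCM6 3.50 and 3.41 against 2.87 and 2.89 (log2 change -0.58, adjusted p = 0.498). The other helicase subunits had log2 changes of -0.58 (MCM4), -0.51 (MCM2 and MCM5) and -0.43 (MCM7). The helicase partners CDC45 (-0.49) and GINS2 (-0.54) were lower as well, and CCNE2, the cyclin of S phase entry, had the lowest value at -0.67 ± 0.44. The smallest differences were those of CCNE1 (-0.07) and LIG1 (-0.12), and TK1, thymidine kinase, was alone in lying above 0 h. With 1 weight per group, MCM6, MCM2 and CDC45 passed an adjusted p of 0.05 without the 2-fold limit, and of the mitosis list PTTG1. That fit passed 0.533% of all genes upward and 0.73% downward.

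**Figure D4:**
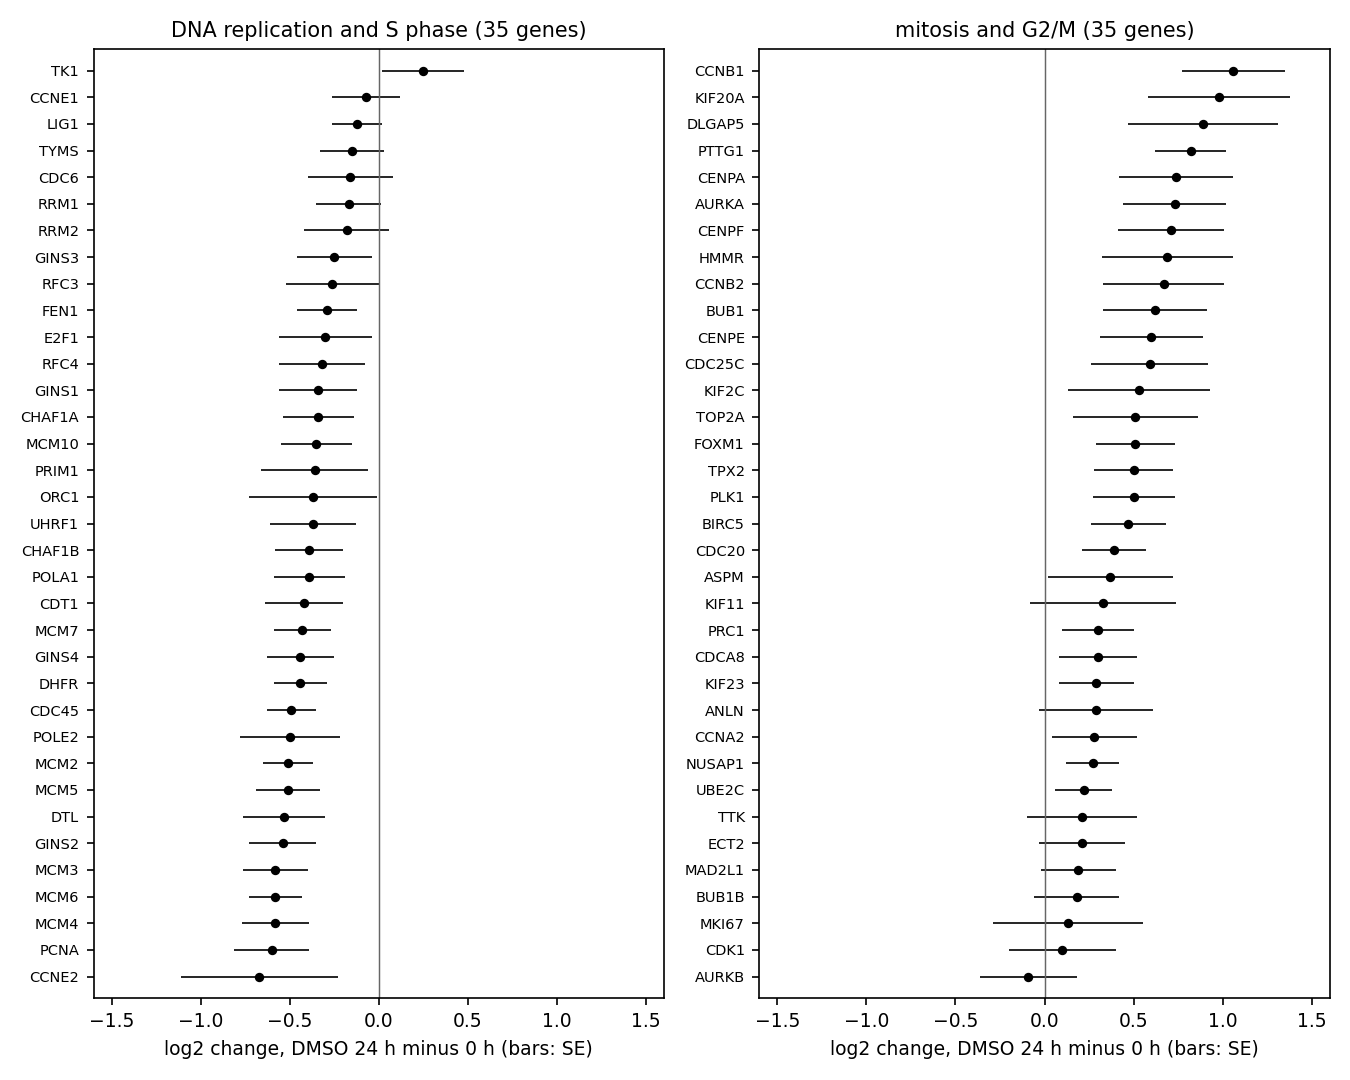
Log2 change from 0 h to DMSO 24 h (horizontal axis) of each gene of the DNA replication and S phase list (left) and of the mitosis and G2/M list (right); points are fitted changes and bars their standard errors, from 2 arrays per group. All replication genes but TK1 lie below 0 and all mitosis genes but AURKB above it.

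Of 25 genes of growth arrest, 12 (48%) had both DMSO arrays above and 6 (24%) below the 0 h arrays. For all genes the shares were 23.8% and 25.4%. The list had a median of 0.20, which became 0.06 with the slide as a block. CCNG2, a cyclin linked to arrest, differed by 0.80, the CDK inhibitors CDKN2D and CDKN2B by 0.67 and 0.66, and PLK2 by 0.64, whereas CDKN1A, or p21, differed by -0.54 and CCND1, cyclin D1, by -0.42. None passed the adjusted test. Of 38 histone genes, 18 lay below and 5 above, with a median of -0.11.

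Among immediate early genes, EGR1 and FOS were well above background with DMSO and not at 0 h. EGR1, a zinc finger factor, measured -6.96 and -7.20 at 0 h and -2.74 and -4.87 with DMSO, at least 4.87-fold higher (limma, adjusted p = 0.230). FOS, a partner in the AP-1 factor, measured -7.11 and -6.51 at 0 h and -3.29 and -4.45 with DMSO, at least 4.65-fold higher (adjusted p = 0.15). For both, the DMSO replicates differed by more than 1 but lay above both 0 h arrays. Of 30 members of the list, 17 (56.7%) lay above and 2 (6.67%) below, beside 23.8% and 25.4% of all genes. The median was 0.32 and fell to 0.11 with the slide as a block. SPRY4 and NR4A1 differed by 0.70 and 0.67, DUSP6, the phosphatase of ERK, by 0.54, and MYC by 0.39, while JUN, JUNB and EGR2 had values of -0.08, -0.16 and -0.33. The second probe of MYC differed by -0.32 and that of NR4A1 by 0.10. The EGR1 promoter (chr5:138465229-138465528 on GRCh38.p14, plus strand) is shown for its CArG boxes, the binding element of SRF, in capitals.
EGR1: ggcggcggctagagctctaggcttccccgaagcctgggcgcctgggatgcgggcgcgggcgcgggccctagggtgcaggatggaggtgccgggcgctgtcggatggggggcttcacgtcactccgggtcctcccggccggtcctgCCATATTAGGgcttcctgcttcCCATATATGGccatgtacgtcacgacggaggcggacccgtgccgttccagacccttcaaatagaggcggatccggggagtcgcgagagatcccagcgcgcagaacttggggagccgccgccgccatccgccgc
It held 2 CArG boxes, a motif found in 1.29% of all promoter windows and in 2 of the 21 windows of the list.

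The EGF receptor and its relatives differed by small amounts in most members. EGFR, the receptor that gefitinib inhibits, measured -0.29 and -0.32 at 0 h and -0.43 on both DMSO arrays (log2 change -0.12 ± 0.22 SE, limma, adjusted p = 0.997). GAK, the cyclin G-associated kinase, measured 0.45 on both 0 h arrays and 0.66 and 0.44 with DMSO (log2 change 0.10 ± 0.17, adjusted p = 0.997). Of 19 members of the family and its ligands, 2 lay above and 5 below. EGF itself had -5.96 and -5.52 at 0 h and -4.27 and -4.68 with DMSO (log2 change 1.26, adjusted p = 0.504), with 1 of the 0 h arrays well above background, and a log2 change of 0.36 with normexp background correction, ERBB2 differed by 0.27 and the ligand EREG by -0.51. LEFTY1, a Nodal antagonist, was measured well above background neither at 0 h nor with DMSO.

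No gene of sterol or lipid synthesis passed the adjusted test. Of 30 genes of cholesterol synthesis and uptake, 21 (70%) had both DMSO arrays below both 0 h arrays and 3 (10%) above. Among all genes 25.4% lay below and 23.8% above. The median log2 change was -0.34. By limma, 8 members reached an unadjusted p under 0.05, all lower, beside 3.35% of all genes. HMGCS1, the HMG-CoA synthase, measured 0.67 and 0.79 at 0 h and -0.37 and -0.36 with DMSO (log2 change -1.09 ± 0.30 SE, limma, adjusted p = 0.507). Its second probe, also well above background, differed by only -0.17, so the size depends on the probe. INSIG1, which holds SREBP in the endoplasmic reticulum, measured 1.02 and 1.70 against -0.16 and 0.57 (log2 change -1.15 ± 0.49, adjusted p = 0.794), with replicates far apart in each group. SQLE, squalene epoxidase, differed by -0.57. The 3 genes above 0 h were ABCG1 (0.35) and MYLIP (0.33), which serve sterol export and limit sterol uptake, and NR1H3 (0.29), the sterol-sensing receptor LXR alpha. In fatty acid and lipid synthesis 14 of 26 lay below and 3 above, with a median of -0.23, and the largest differences were those of the elongase ELOVL6 (-0.62), the factor SREBF1 (-0.57) and the synthase FASN (-0.56). The sterol element of the letters TCACNCCAC was in 1 of 22 promoter windows of the cholesterol list and in 1.15% of all.

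No inflammatory gene passed the adjusted test. Of 35 members, 19 (54.3%) lay below and 4 (11.4%) above, beside 25.4% and 23.8% of all genes. The median was -0.29. By limma, 9 members reached an unadjusted p under 0.05 downward and 1 upward, beside 3.35% and 2.85% of all genes. MMP10 and MMP3 are matrix-degrading enzymes, and PTGS2 is the inducible cyclooxygenase. MMP3 measured -2.76 and -2.51 at 0 h and -4.49 and -3.89 with DMSO (log2 change -1.56 ± 0.41 SE, limma, adjusted p = 0.498). MMP10 measured -3.56 and -4.13 against -5.39 and -6.56 (log2 change -2.13, adjusted p = 0.275), and was well above background on 1 of the DMSO arrays. PTGS2 was not so on either, and its 0 h level was at least 1.57-fold higher (adjusted p = 0.454). The NF-kappaB targets TNFAIP3, BIRC3 and NFKBIA, which restrain the pathway or cell death, differed by -0.98, -0.92 and -0.66, and the chemokines CXCL6 and CXCL8 by -1.07 and -0.83. IL33, a nuclear cytokine, went the other way, from -2.18 and -1.85 to -0.88 and -0.72 (log2 change 1.22 ± 0.29, adjusted p = 0.397). IL6 (0.40), IL1B (-0.07) and LIF (-0.17) had groups that overlapped.

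Interferon-stimulated genes did not shift evenly between the replicates. The median was -0.17 over 46 genes, but -0.36 between the arrays of replicate number 1 and -0.07 between those of number 2. Of these genes, 16 (34.8%) lay below and 1 (2.17%) above, beside 25.4% and 23.8% of all genes. Without DMSO replicate 2 the median was -0.37 and without DMSO replicate 1 it was -0.04. IFNL1, an interferon lambda, had a 0 h level at least 1.94-fold higher, and its log2 change was -0.61 without 0 h replicate 1. GBP1, a guanylate-binding protein, measured -1.12 and -1.24 at 0 h and -2.39 and -2.14 with DMSO (log2 change -1.08, limma, adjusted p = 0.599). RSAD2, or viperin, measured 0.67 and 0.83 against -0.55 and 0.44, so that the DMSO replicates lay further apart than the group means, which differed by -0.80. ISG15 (-0.19) and MX1 (-0.12) had overlapping groups.

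No matrix gene passed the adjusted test. Of 42 genes of the mesenchymal state and matrix, 25 (59.5%) lay below and 4 (9.52%) above, with a median of -0.18. Shares of all genes were 25.4% and 23.8%. LOXL4, a lysyl oxidase that crosslinks collagen, measured 0.77 and 0.37 at 0 h against -0.73 and -0.36 (log2 change -1.12 ± 0.28 SE, limma, adjusted p = 0.423). FN1, fibronectin, measured 2.11 and 1.83 against 1.38 and 0.96 (log2 change -0.80, adjusted p = 0.677). TGFBI was not well above background with DMSO, and its 0 h level was at least 1.97-fold higher (adjusted p = 0.709). ITGB4 and LAMB3, parts of the hemidesmosome and its laminin, differed by -0.74 and -0.66. VIM, vimentin, lay slightly above (0.14). The signal of the 10 fibroblast markers was summed in multiples of the 75th percentile. It was 2.32 to 2.88 at 0 h and 2.17 to 2.28 with DMSO. Most of it came from 1 gene, THY1, with log2 signals of 1.26 and 0.89 at 0 h and 0.82 and 0.89 with DMSO. Of the markers, 4 were well above background on all 4 arrays, and the part of this signal in the result was not tested.

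Targets of YAP and TEAD, factors that respond to cell density and attachment, had a median of -0.05. Of 24 targets, 11 (45.8%) lay below and 2 (8.33%) above, beside 25.4% and 23.8% of all genes. ANKRD1, a muscle ankyrin repeat protein, measured -3.28 and -4.14 at 0 h and -6.68 and -5.62 with DMSO, where it was well above background on 1 array (log2 change -2.44 ± 0.40 SE, limma, adjusted p = 0.146). IGFBP3, a binding protein of insulin-like growth factors, measured 0.72 and 0.11 against -0.63 and -0.97 (log2 change -1.21, adjusted p = 0.527). CCN2 and CCN1, matricellular targets of these factors, had 0.46 and 0.24 with overlapping groups. The epithelial list had 8 of 32 members above and 8 below, a share of 25.0% each way, close to that of all genes. Apart from KRT7 its largest differences were those of CLDN1, a tight junction protein (-0.57), JUP, plakoglobin (0.48), and CDH1, E-cadherin (-0.41).

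**Figure D5:**
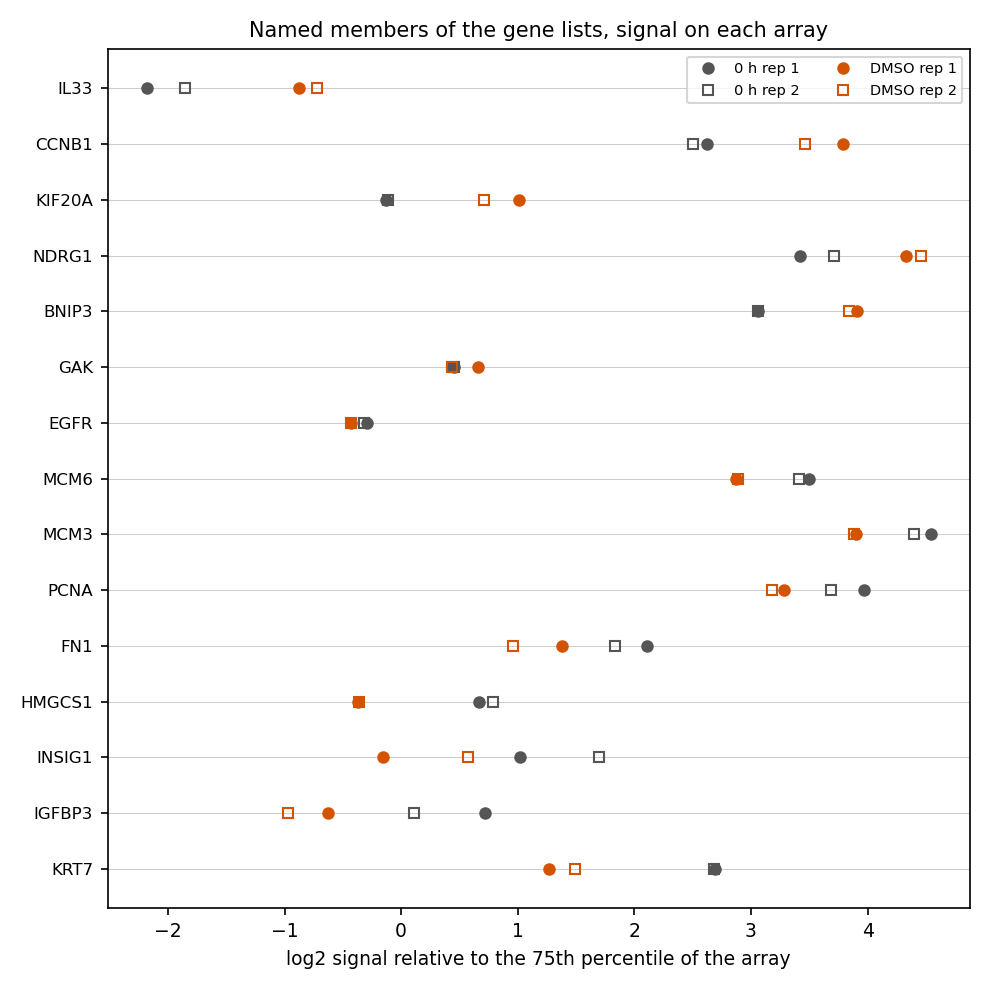
Log2 signal minus the array's 75th percentile (horizontal axis) of 15 members of the lists, on each of the 2 arrays at 0 h (grey) and the 2 with DMSO (orange). GAK is the gene drawn whose groups overlap, and in the others the grey and orange points lie apart.

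No gene of energy use passed the adjusted test. Of 38 genes of glycolysis and the hypoxia response, 21 (55.3%) lay above and 2 (5.26%) below, beside 23.8% and 25.4% of all genes. The median was 0.19, or 0.04 with the slide as a block. BNIP3, a mitophagy receptor induced by hypoxia, measured 3.06 on both 0 h arrays and 3.91 and 3.84 with DMSO (log2 change 0.82 ± 0.24 SE, limma, adjusted p = 0.549). NDRG1, a stress-induced gene, measured 3.42 and 3.71 against 4.33 and 4.46 (log2 change 0.84 ± 0.31, adjusted p = 0.679). BNIP3L differed by 0.68, the glucose transporter SLC2A1 by 0.31 and lactate dehydrogenase LDHA by 0.43, while VEGFA (-0.11) and HK2 (0.07) had overlapping groups. Of 40 subunits of oxidative phosphorylation, 21 lay above and 0 below, with a median of 0.10 and 0 members at an unadjusted p under 0.05 by limma, and the largest values were those of SDHC (0.48) and COX8A (0.37).

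No gene of ribosome making passed the adjusted test. Of 34 MYC and ribosome biogenesis genes, 27 (79.4%) lay below and 2 (5.88%) above, beside 25.4% and 23.8% of all genes. The median was -0.19, with 1 member at an unadjusted p under 0.05 by limma. The lowest value was -0.48 for NOP14, a small subunit processing factor. The 2 above were TFRC, the transferrin receptor (0.06), and MYC itself. The 57 cytosolic ribosomal proteins had a median of 0.07, with 13 (22.8%) above and 7 (12.3%) below. In the ATF4 and amino acid list 16 of 35 lay below and 4 above, with a median of -0.11, from -0.50 for CTH, an enzyme of cysteine synthesis, to 0.59 for VLDLR. Chaperones of the endoplasmic reticulum had 8 of 23 below and 2 above (median -0.09), with HSPA5, the chaperone BiP, at -0.35, and cytosolic heat shock genes 4 of 21 in each direction (median -0.01).

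In the remaining lists the share above ran from 14.8% to 33.3% and that below from 13.9% to 30.3%. For all genes the shares were 23.8% and 25.4%. NRF2 targets and metallothioneins had 7 of 36 above and 5 below, AHR and drug metabolism genes 7 and 4 of 25, and the circadian clock 6 and 5 of 22. Apoptosis genes had 11 of 33 above and 10 below with a median of -0.02, and autophagy and lysosome genes 11 and 8 of 37. TGF-beta, activin and Nodal genes had 4 of 27 above and 8 below, and the glucose-sensing MondoA and ChREBP targets 3 and 2 of 9. Of the cancer-testis antigens 10 were tested, 3 above and 2 below, and 3 were well above background on all 4 arrays.

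The drug-treated arrays share the 0 h arrays with this comparison, and their values are given only side by side. For those 6 arrays the treatment written in the scanner file name differs from the label, and the label is used here. Against 0 h, the replication list had a median log2 change of -2.26 on the arrays labelled luteolin, -0.26 on those labelled gefitinib and -0.78 on those labelled with both, beside -0.37 for DMSO. For the mitosis list the medians were -1.66, -0.57 and -1.19 in the same order, beside 0.47 for DMSO. For the cholesterol list they were 0.52, 0.43 and 0.06, beside -0.34. The median over all genes was 0.05, 0.21 and 0.15 in those groups. KRT34 measured -3.27 and -3.32 with luteolin, -0.28 and 0.07 with gefitinib and -3.03 and -2.11 with both, so that only the arrays labelled gefitinib stood near its 0 h values. DAW1 followed the same order, from -3.89 with luteolin to -0.33 with gefitinib, as log2 changes against 0 h, as did LOC399956 (-2.77, 0.50 and -1.13) and KRT7 (-3.17, 0.44 and -1.22).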

How the data were processed

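Total RNA of PC-3 cells was hybridised to single-colour Agilent 4x44K arrays. The deposited intensity is the processed signal written by Feature Extraction 10.7.3.1 (per the file headers), from which the software had removed background and spatial trend, with a surrogate in place of the lowest values and no normalization between arrays. The values submitted beside the scanner files were equal to it. The members, gene lists and tests were chosen with earlier results of these data known. Samples were grouped by their labels.

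Control and outlier spots were left out, spots of a probe were averaged as log2 signal, and the 75th percentile of each array was subtracted. A probe was kept if some group, out of 5, had it well above background in both replicates (28776 of 41000), and each gene was represented by its brightest probe, giving 19718 genes. Accessions of 23958 probes matched RefSeq and took its current symbols; coordinates are those of the files (hg18), and promoter windows are from RefSeq (GRCh38.p14). A limma 3.58.1 model with 5 groups (R 4.3.3, the data.table package, version 1.17.8) used all 10 arrays (residual degrees of freedom 5, prior 3.31), with Benjamini-Hochberg adjustment over all genes. The fit was tested on simulated data. For a fold given as "at least", the dim group's arrays took either the probe's signal or the lowest detected signal on that array, whichever was higher. With normexp background correction the log2 changes were 1.48 for AI003989, 1.44 for C6orf118, 1.07 for EGR1 and -1.21 for CT45A1. Those are smaller folds than the ones given as "at least", which are therefore not lower bounds under every background correction.

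Genes named are those past the threshold, the 12 largest differences each way among genes measured above background throughout, with separate groups and an unadjusted p under 0.05, up to 4 members of each list by size with members showing its range, and GAK, EGFR, LEFTY1 and LEFTY2. Some genes that this rule takes are not reported here. Of 962 list genes, 21 were not found by name on the array. With 2 arrays in each group, precision is limited by their number. Alternatives were another background correction, scaling, filter, probe choice, block and weighting, the methods' 1-sample t-test, and leaving out each array.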

Additional observations from a re-analysis of the deposited data

How the results depend on the processing

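Over the alternatives that leave out 1 of the 4 arrays, the number of raised genes ran from 3 to 4 and that of lowered genes from 0 to 4, against 6 and 6. Without either DMSO array 0 genes were lowered, and without 0 h replicate 2 there were 2. Raised and lowered genes numbered 10 and 13 with normexp background correction, 3 and 0 with no filter on dim probes, 0 and 0 with probes kept only if all 4 arrays measured them above background (1082 genes at an unadjusted p under 0.05), 1 and 1 with the slide as a block (neither among the 12 genes), 0 and 0 in the 4 arrays alone, 42 and 80 with 1 weight per group, and 105 and 144 with those weights and no minimum fold, an alternative chosen after seeing the data. Scaling to the median lowered 3 genes, and the median over probes lowered 11. The methods' 1-sample t-test, at a 2-fold limit, gave 29 and 79 genes unadjusted and 0 and 0 after Benjamini-Hochberg adjustment (2499 genes at an unadjusted p under 0.05). Quantile normalization, the table of values and no minimum fold kept both counts within 1.5 times. The cause of these differences was not tested.

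Between the groups, the arrays of replicate 1 share only a number, whereas those of replicate 2 also share slide 1. The deviations of same-numbered arrays correlated at 0.288, and a pairing cannot be told apart from the shared slide. With the replicate block 4 genes were raised and 3 lowered, and in the 4 arrays alone with the replicate block 2 and 1. These 7 genes, with all arrays, were also called without the block. Of 142 named genes followed through 17 alternatives, 1 changed sign: GAK, at -0.01 without DMSO replicate 1 and -0.01 within slide 1, against 0.10. Its values without 1 array ran from -0.01 to 0.21. The 11 list medians of at least 0.15 in size kept their sign in every alternative, from 0.38 to 0.53 for mitosis, from -0.43 to -0.31 for DNA replication and from -0.45 to -0.24 for cholesterol. The 5 raised genes with levels rest on 0 h signals not well above background, so their size depends on the background correction, and with normexp FSHR had a log2 change of 1.48 against 4.74.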
